A study of Mus musculus with 12 samples.

Results

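The transporters described here are 10 genes that encode plasma membrane amino acid transporters, or the heavy chains that carry them to the cell surface,, measured in mouse pancreas: Slc7a1, Slc7a2, Slc3a2, Slc3a1, Slc7a5, Slc7a8, Slc43a1, Slc38a2, Slc38a3 and Slc38a5. They were chosen by name, 10 of the 18194 genes that the array addresses by a probe set of 1 symbol. Each gene is represented by its probe set with the highest mean over the 12 arrays. Of the 10 genes, 8 exceeded log2 4 on at least 3 arrays and could be tested.

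The arrays were Affymetrix expression arrays hybridized with pancreas RNA of mice, 8 weeks old per the labels. The labels call the arrays of a group biological replicates, and each array is taken here as a separate mouse. The 4 groups of 3 mice were C57BL6/J (from Jackson, called J) after cerulein, C57BL6/NHsd (from Harlan, called NHsd) after cerulein, J after saline, and NHsd after saline. Cerulein, an analogue of cholecystokinin, was given to induce chronic pancreatitis. The schedule is not given in the sources used here, and a sex, female, is given for the saline mice only. A J or NHsd label marks a substrain of the same inbred strain, and no allele was engineered in any group.

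Acinar cells, which make up most of the pancreas, synthesize digestive enzymes at a high rate and take up large amounts of amino acids from the blood. The SLC38 transporters move small neutral amino acids such as glutamine together with sodium. SLC7 proteins are either cationic amino acid transporters, which work alone, or light chains, which exchange amino acids. Of the light chains described here, Slc7a5 and Slc7a8 exchange large neutral amino acids. A light chain needs an SLC3 heavy chain bound by a disulphide bridge to reach the membrane.

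Slc38a5 was the transporter with the clearest difference. Its signal fell by 1.74 log2 after cerulein as the mean of both substrains (SE 0.13, limma, adjusted p = 2.69e-07), and it fell in each substrain. Slc7a2 was 0.94 log2 higher (SE 0.27, limma, adjusted p = 0.00738), a call that ended when the arrays were brought to equal medians. The other 6 genes did not pass at an adjusted p of 0.05 on the deposited scale. Thus 1 of 8 rose and 1 of 8 fell, while over all 8505 genes tested 59.4% rose and 10.1% fell (69.4% in either direction). Without the array J cerulein replicate 1, described below, 2 of 8 rose (Slc7a1 and Slc7a2) and 2 fell (Slc38a5 and Slc7a8), while over all genes 61.0% rose and 11.3% fell.

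The deposited scale shifts with treatment, and the array labelled J cerulein replicate 1 stands apart. The median of the tested genes was log2 6.12 ± 0.09 on the 6 cerulein arrays and 5.54 ± 0.08 on the 6 saline arrays (SD; two-sided p = 0.00216 by an exact permutation test, the smallest such a design allows; adjusted p = 0.0036 over 5 measures). Control RNAs spiked into the samples moved the other way, by -1.74 for the hybridization kind and -2.41 for the poly-A kind, with the same p. The gap between the 3′ and 5′ probe sets of Gapdh was 0.83 ± 0.13 log2 after cerulein and 1.22 ± 0.20 after saline (exact p = 0.00649, adjusted p = 0.00811). The median gene changed by 0.49 log2, and a gene's change is therefore given below also relative to that shift and with equal array medians. With equal medians 2262 genes rose and 3072 fell, against 5049 and 855 on the deposited scale. The labels name no batch, and an effect of treatment and one of array handling cannot be told apart here. The tissue label fits its markers: all 22 acinar genes with a probe set passed the filter, and their median lay between log2 14.16 and 14.69 on cerulein arrays and between 14.92 and 14.99 on saline arrays.

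On J cerulein replicate 1 all 8 measured transporters lay below both other J cerulein arrays, with differences of -1.98 to -0.42 log2 from their mean, and 7 of the 8 had their lowest value of the 12 arrays there. Over all tested genes 43.9% lay below both other arrays, with a median difference of -0.01. Of the 22 acinar genes 16 lay below both, of the 13 stellate cell and fibroblast genes 11, of the 8 endothelial genes 6, and of the 15 macrophage genes 5. So did 11 of 19 other amino acid transporters, 6 of 11 duct, 6 of 13 islet, 10 of 26 response and 11 of 27 sensing genes. How many of all tested genes had their lowest value of the 12 arrays on this array was not counted. The summed signal of the stellate cell and fibroblast genes was 9498 on this array, the lowest of the 3 J cerulein arrays, of which the highest had 24076. Its mean correlation with the other arrays of its group was 0.951, the lowest of the 12. The values of the transporters are therefore also given without this array. Of the other gene lists below, 7 of 19 other transporters rose and 3 fell without it, 10 and 11 of 26 response genes, 11 and 4 of 27 sensing genes, 2 and 16 of 22 acinar genes, and all 13 islet and all 15 macrophage genes rose.

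**Figure D1:**
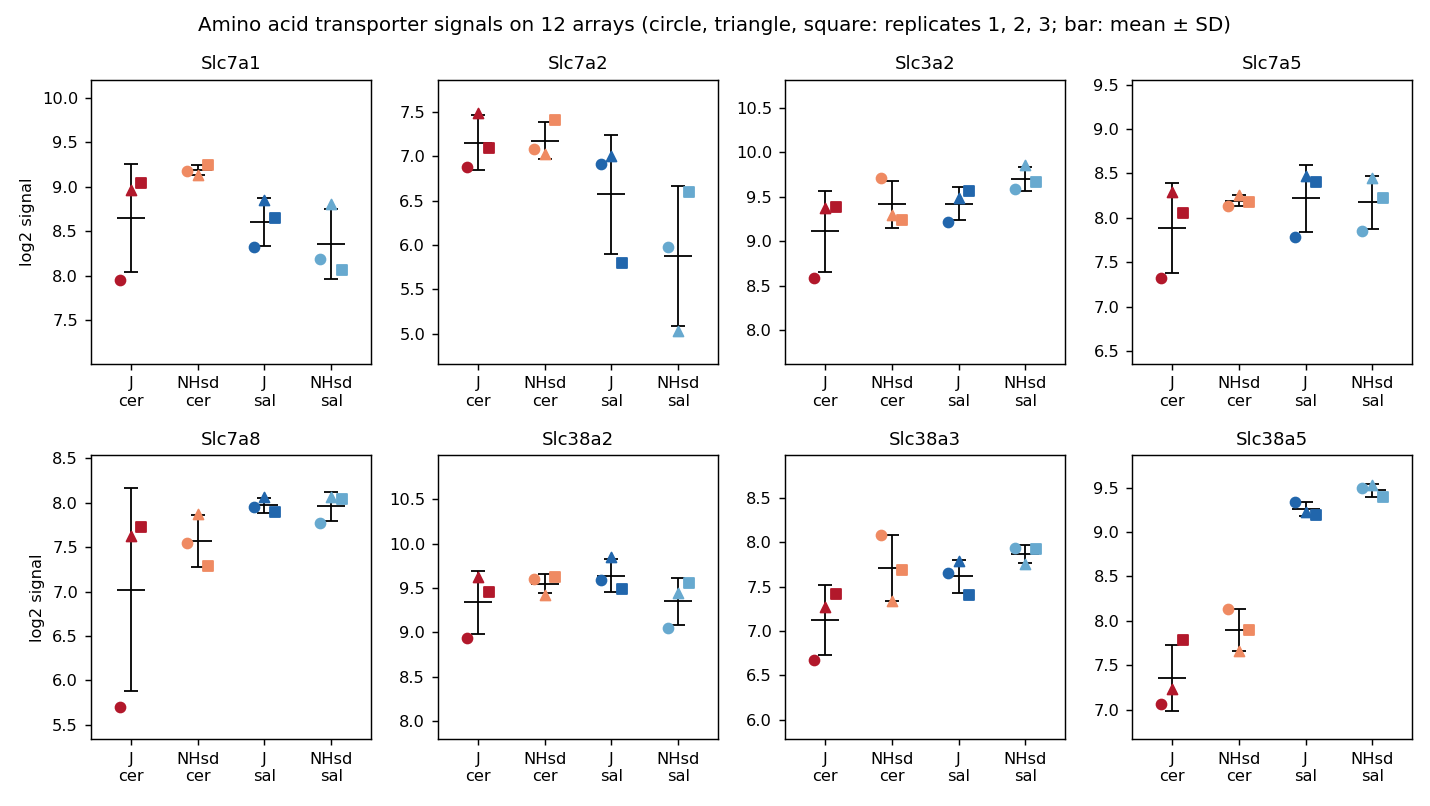
Log2 signal of the 8 measured transporter genes on each of the 12 arrays, in 4 groups of 3 mice (cer, cerulein; sal, saline). Circles, triangles and squares are replicates 1, 2 and 3, and the bar with whiskers is the group mean ± SD; every panel spans the same number of log2 units. Slc38a5 separates the treatments without overlap, and the red circle of J cerulein replicate 1 is the lowest point of 7 panels.

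Slc38a5 (chrX:8271381-8280179 in the GRCm38.p6 annotation of RefSeq, as are the positions of the genes below) encodes SNAT5, a sodium-coupled carrier of glutamine, asparagine, histidine, serine and glycine that moves a proton the other way. Its log2 signals were 7.06, 7.23 and 7.78 in J mice after cerulein and 8.13, 7.66 and 7.89 in NHsd mice after cerulein. In saline they were 9.34, 9.23 and 9.19 in J mice and 9.50, 9.53 and 9.39 in NHsd mice. All 6 cerulein arrays lay below all 6 saline arrays, which held for 4.94% of all tested genes (40.0% lay above). The gap between the nearest arrays exceeded the spread within saline, though not the spread within cerulein, which was about as large as the gap.

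In J mice Slc38a5 fell by 1.90 log2 (SE 0.18, limma, adjusted p = 5.95e-06), to 0.268 of the saline level. In NHsd mice it fell by 1.58 (SE 0.18, adjusted p = 2.79e-05), to 0.335 of the saline level. Relative to the median gene the mean change was -2.22, and 37 of the 8505 genes, Slc38a5 included, had a change this low or lower. Without J cerulein replicate 1 it fell by 1.67 (SE 0.12, adjusted p = 4.52e-07), and with equal medians by 2.32 (SE 0.13, adjusted p = 1.21e-08). The difference between the 2 substrains' effects was -0.32 (limma, adjusted p = 0.756), so a substrain difference was not shown.

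The promoter window of Slc38a5 is shown because this gene has the largest change, beside that of Slc38a2, a gene of the same family that did not pass the test. Both windows run from 250 bases before to 50 bases after the RefSeq start in GRCm38.p6, at chrX:8271131-8271430 on the plus strand for Slc38a5 and at chr15:96699679-96699978 on the minus strand for Slc38a2. Capitals mark the E-box CANNTG, the letters that basic helix-loop-helix factors such as the acinar factor PTF1A bind.
Slc38a5: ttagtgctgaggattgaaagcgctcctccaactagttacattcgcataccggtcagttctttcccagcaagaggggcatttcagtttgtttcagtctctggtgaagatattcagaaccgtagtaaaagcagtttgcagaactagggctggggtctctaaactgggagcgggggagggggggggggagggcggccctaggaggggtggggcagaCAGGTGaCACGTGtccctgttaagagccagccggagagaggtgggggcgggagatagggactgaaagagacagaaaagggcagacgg
Slc38a2: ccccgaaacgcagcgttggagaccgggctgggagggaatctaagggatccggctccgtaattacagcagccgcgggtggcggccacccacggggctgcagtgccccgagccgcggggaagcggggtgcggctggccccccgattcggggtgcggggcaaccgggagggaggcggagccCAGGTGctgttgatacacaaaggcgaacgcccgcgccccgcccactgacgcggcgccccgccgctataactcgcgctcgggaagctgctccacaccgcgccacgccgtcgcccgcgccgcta

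The Slc38a5 window held 2 E-boxes, beginning at bases 214 and 221 from its 5′ end and separated by a single base, and the Slc38a2 window held 1. An E-box is common: of 32851 promoter windows of the same length 72.3% held at least 1 and 39.6% at least 2, with both strands searched. The core of the amino acid response element, TGATGNAA, was searched on both strands in the 8 windows of the 7 transporter genes for which RefSeq's table had one, and was found in 0 of them, against 3.97% of all windows. At a share this low, finding 0 in 8 windows says little, and bases outside the windows were not searched. These counts describe letters in a window only. Sequences of Slc7a2, Slc7a5 and Slc38a3 were not used here.

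By the rule for likeness, the 4 tested genes with the profile nearest to that of Slc38a5 over the 12 arrays were Hgfac, Gp2, Qsox1 and Susd2. The measure was the root mean square difference of mean-centred log2 values, which was 0.152 for Hgfac, 0.157 for Gp2, 0.168 for Qsox1 and 0.202 for Susd2, against a median of 1.18 over all genes. Gp2 encodes the main glycoprotein of the zymogen granule membrane, and Qsox1 an oxidase that forms disulphide bonds in secreted proteins. All 4 were lower after cerulein, by changes of -1.72 for Hgfac, -1.58 for Gp2, -1.61 for Qsox1 and -1.53 for Susd2. A fall of about this size follows from how they were chosen, by nearness to the Slc38a5 profile on these same arrays, and is no separate result.

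Markers of several cell types moved with the same comparison. Of 22 acinar genes 17 fell and 2 rose on the deposited scale, with a median change of -0.39, against 20 lower and 0 higher with equal medians. Quantile normalization left 12 lower and 1 higher, with a median of -0.22. Their summed linear signal ran from 438103 to 488113 in J mice and from 428152 to 524280 in NHsd mice after cerulein, against 623125 to 634221 in J mice and 611884 to 629574 in NHsd mice in saline. Slc38a5 is also known from islet alpha cells of the mouse. All 13 measured islet genes of 16 with a probe set rose by a median of 0.90 (4 with equal medians and 7 with quantile normalization, where none fell), with Pcsk1, Pdx1 and Nkx6-1 under the filter. The islet sum ran from 31843 to 36537 in J and from 23430 to 29004 in NHsd mice after cerulein, against 17053 to 22331 in J and 17418 to 19195 in NHsd mice in saline. In these samples of whole tissue fewer cells of a type and less RNA per cell cannot be told apart, and the part of these markers in the result was not tested.

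Slc38a2 (chr15:96687392-96699728), for SNAT2, a sodium-coupled system A transporter that cells induce when amino acids are short, had log2 signals of 8.94, 9.62 and 9.45 in J and 9.60, 9.42 and 9.62 in NHsd mice after cerulein, against 9.59, 9.85 and 9.48 in J and 9.05, 9.45 and 9.55 in NHsd mice in saline. The groups overlapped in both substrains. Its change was -0.05 log2 (SE 0.14, limma, adjusted p = 0.739), or -0.54 relative to the median gene, and with equal medians it fell by 0.63 (adjusted p = 0.00106). The mean change was 0.05 (adjusted p = 0.716) without J cerulein replicate 1. A dimmer second probe set of Slc38a2 gave another picture: 5.46, 5.89 and 5.61 in J and 5.96, 5.89 and 6.02 in NHsd mice after cerulein, against 4.89, 4.89 and 5.27 in J and 4.70, 5.47 and 4.23 in NHsd mice in saline. When each of the 12780 kept probe sets was tested separately, this probe set was 0.90 higher (SE 0.18, adjusted p = 0.000862) and the brighter one was not called (adjusted p = 0.743), so the call for Slc38a2 depends on the probe set.

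Slc38a3 (chr9:107651154-107668968), for SNAT3, a system N carrier of glutamine and histidine like SNAT5, was 6.67, 7.27 and 7.42 in J and 8.09, 7.34 and 7.69 in NHsd mice after cerulein. In saline it was 7.65, 7.78 and 7.41 in J and 7.93, 7.75 and 7.93 in NHsd mice. The cerulein arrays reached both above and below the saline arrays. The mean change of -0.33 (SE 0.16) did not pass (limma, adjusted p = 0.078), nor did it without J cerulein replicate 1, at -0.22 (adjusted p = 0.159). With equal medians Slc38a3 fell by 0.91 (SE 0.14, adjusted p = 0.000103), and it was called lower in each substrain.

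Of the cationic transporters, Slc7a1 (chr5:148327410-148399904) encodes CAT1, the widespread importer of arginine, lysine and ornithine, and Slc7a2 (chr8:40862341-40922070) encodes CAT2, whose splice forms differ in affinity and one of which supplies arginine to activated mouse macrophages. Slc7a1 had log2 signals of 7.95, 8.97 and 9.04 in J and 9.18, 9.14 and 9.25 in NHsd mice after cerulein, against 8.32, 8.85 and 8.65 in J and 8.19, 8.81 and 8.06 in NHsd mice in saline. Except for J cerulein replicate 1, which was the lowest of all, each cerulein array was above each saline array. A separation upward was common, since all 6 cerulein arrays lay above all 6 saline arrays for 40.0% of all tested genes.

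Of all tested genes 48.7% were called higher in NHsd mice, and how many had groups without overlap was not counted. Slc7a1 rose in NHsd mice by 0.83 (SE 0.28, limma, adjusted p = 0.022), where the arrays of the groups did not overlap. This call ended when any 1 of 4 arrays was left out, with an adjusted p of 0.054 without NHsd cerulein replicate 1, 0.0604 without NHsd cerulein replicate 3, 0.0681 without NHsd saline replicate 1 and 0.0873 without NHsd saline replicate 3. It also ended with no filter (adjusted p = 0.0784), with the mean of its probe sets (0.51, adjusted p = 0.168) and with quantile normalization (0.41, adjusted p = 0.276). In J mice the change was 0.05 (SE 0.28, adjusted p = 0.899), and 0.40 (SE 0.21, adjusted p = 0.127) without J cerulein replicate 1. The mean of both substrains was 0.44 (adjusted p = 0.0608) with this array and 0.62 (adjusted p = 0.00225) without it. Relative to the median gene that mean change was -0.05, and with equal medians it was -0.14 (adjusted p = 0.546), while in NHsd mice alone the change with equal medians was 0.25 (adjusted p = 0.485). The substrains' effects differed by -0.79, which did not pass (adjusted p = 0.714). A dimmer second probe set of Slc7a1 differed by -0.03 and was not called (SE 0.24, adjusted p = 0.925 among all kept probe sets), and the third lay at log2 2.39, the floor, on all arrays.

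Slc7a2 had log2 signals of 6.87, 7.49 and 7.09 in J and 7.08, 7.03 and 7.41 in NHsd mice after cerulein, against 6.91, 7.00 and 5.80 in J and 5.98, 5.04 and 6.60 in NHsd mice in saline. The cerulein arrays lay close together, and the saline arrays were widely spread, with an SD of 0.67 in J and 0.79 in NHsd mice. In NHsd mice, where the groups did not overlap, the gene rose by 1.30 (SE 0.38, limma, adjusted p = 0.0115). Such a separation was not counted over all genes, of which 48.7% were called higher in NHsd mice. The call of Slc7a2 in NHsd mice ended with equal medians (0.71, adjusted p = 0.103) and after quantile normalization (0.73, adjusted p = 0.0998). It also ended when no filter was set (adjusted p = 0.0565) and without NHsd saline replicate 2 (0.88, adjusted p = 0.0526). With the mean of its probe sets it ended too (0.50, adjusted p = 0.135), but that mean includes a second probe set near the limit, described below. In J mice the groups overlapped and the change was 0.58 (adjusted p = 0.208), and the difference of the effects, at -0.72, was not called (adjusted p = 0.747).

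The mean rise of Slc7a2 was 0.45 above the median gene, and with equal medians the change was 0.36 (SE 0.25, adjusted p = 0.218) and with the mean of its probe sets 0.25 (adjusted p = 0.254). The mean rise was 1.01 (adjusted p = 0.00849) without J cerulein replicate 1. Its second kept probe set lay between 3.26 and 3.74 on the cerulein arrays, all under log2 4, and between 3.74 and 4.34 on the saline arrays. Tested separately, it was called lower, with a change of -0.435 (SE 0.138, limma, adjusted p = 0.0138 among all kept probe sets). This is opposite to the brighter probe set, and the size is inexact so near the limit. The second probe set passed the filter on 3 arrays, all saline, so the filter itself favoured a lower value after cerulein. The mean of the probe sets includes it, so the call lost with that mean is no separate check of the rise. The 4 tested genes nearest in profile to Slc7a2 by the same measure were Morc2a at 0.247, Usp25 at 0.267, Strn3 at 0.270 and Nsd1 at 0.276, against a median of 0.644 over all genes. Macrophage markers rose alongside: 15 of 15 measured genes, of 16 with a probe set, rose by a median of 3.23. This size is inexact, since the median of these genes on a saline array was as low as log2 4.01, near the limit. Their summed signal was 19085 to 23967 in J and 14872 to 19687 in NHsd mice after cerulein, against 1375 to 2489 in J and 1635 to 2316 in NHsd mice in saline. The part of these cells in the Slc7a2 and Slc7a1 signals was not tested.

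**Figure D2:**
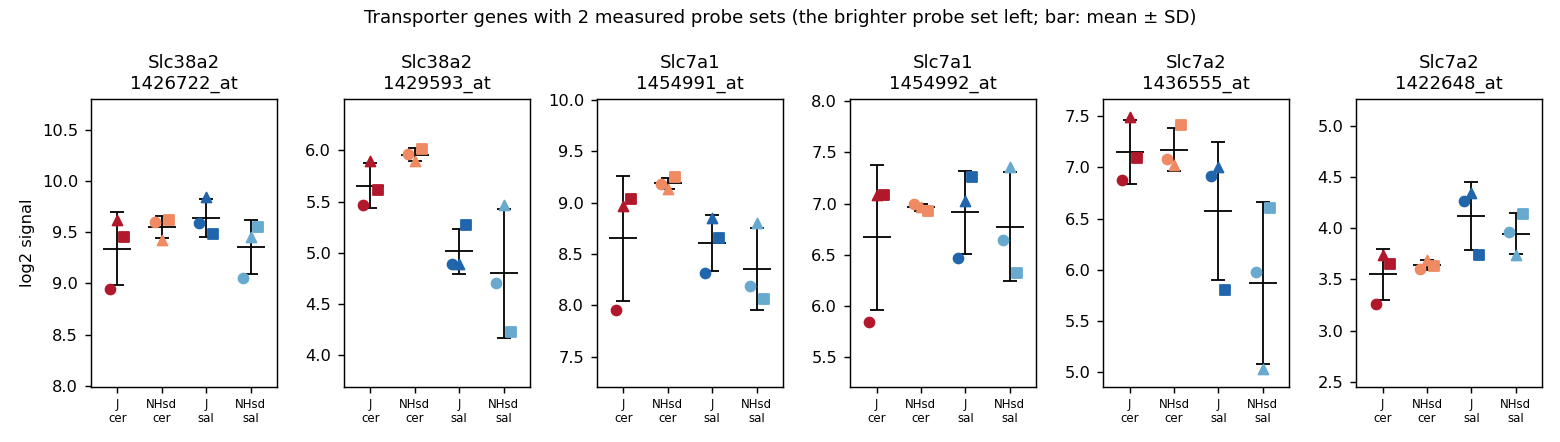
Log2 signal on each array for the 3 genes with a second measured probe set, with the brighter probe set of each pair on the left (cer, cerulein; sal, saline; bar, group mean ± SD, 3 mice each). The second probe set of Slc38a2 is 0.90 log2 higher after cerulein, with 5 cerulein arrays above every saline array (not counted over all genes). The brighter one overlaps more widely between treatments and is not called, and the second one of Slc7a2 lies under log2 4 on all cerulein arrays.

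Slc3a2 (chr19:8706882-8723369) encodes 4F2hc, the heavy chain shared by the light chains Slc7a5 (LAT1) and Slc7a8 (LAT2) and by several others. Its log2 signals were 8.58, 9.37 and 9.38 in J and 9.72, 9.29 and 9.24 in NHsd mice after cerulein, against 9.22, 9.49 and 9.56 in J and 9.59, 9.85 and 9.66 in NHsd mice in saline, and the groups overlapped. The mean change was -0.30 (SE 0.15, limma, adjusted p = 0.0951), with -0.31 in J and -0.29 in NHsd mice. Without J cerulein replicate 1 the change was -0.05 in J mice (adjusted p = 0.824) and -0.17 as the mean (adjusted p = 0.186). With equal medians Slc3a2 fell by 0.88 (SE 0.15, adjusted p = 0.00023).

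Slc7a5 (chr8:121881146-121907686), the exchanger of large neutral amino acids typical of growing cells, had log2 signals of 7.32, 8.29 and 8.05 in J and 8.14, 8.26 and 8.18 in NHsd mice after cerulein, against 7.79, 8.47 and 8.40 in J and 7.85, 8.44 and 8.23 in NHsd mice in saline. Without J cerulein replicate 1 the cerulein arrays lay within the range of the saline arrays. The mean change of -0.16 (SE 0.18) did not pass (limma, adjusted p = 0.445), and without that array it was -0.02 (adjusted p = 0.927). Relative to the median gene it was -0.65, and with equal medians Slc7a5 fell by 0.74 (adjusted p = 0.00373).

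Slc7a8 (chr14:54722215-54781886), the LAT2 light chain, of wider substrate range and found mainly in epithelia, had log2 signals of 5.70, 7.63 and 7.73 in J and 7.55, 7.87 and 7.29 in NHsd mice after cerulein. In saline they were 7.95, 8.06 and 7.90 in J and 7.77, 8.06 and 8.05 in NHsd mice. Of the 6 cerulein arrays 5, all but NHsd cerulein replicate 2, lay below the lowest saline array, and J cerulein replicate 1 lay far below the rest. How many of all genes had 5 of 6 cerulein arrays below was not counted. On all arrays the mean change was -0.67 (SE 0.29, limma, adjusted p = 0.0539), which did not pass. Without J cerulein replicate 1 the change was smaller and its error smaller still, and the gene fell by 0.34 (SE 0.11, adjusted p = 0.0176). With equal medians it fell by 1.25 (SE 0.28, adjusted p = 0.00171).

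Slc3a1 (chr17:85028347-85064241), for the heavy chain rBAT of the cystine and dibasic amino acid exchanger of kidney and gut, and Slc43a1 (chr2:84838855-84863586), for LAT3, a facilitative carrier of leucine, isoleucine, valine and phenylalanine, each had 1 probe set. Both stayed between log2 2.39, the floor, and 2.41 on all 12 arrays, so no level or change could be measured for them.

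**Figure D3:**
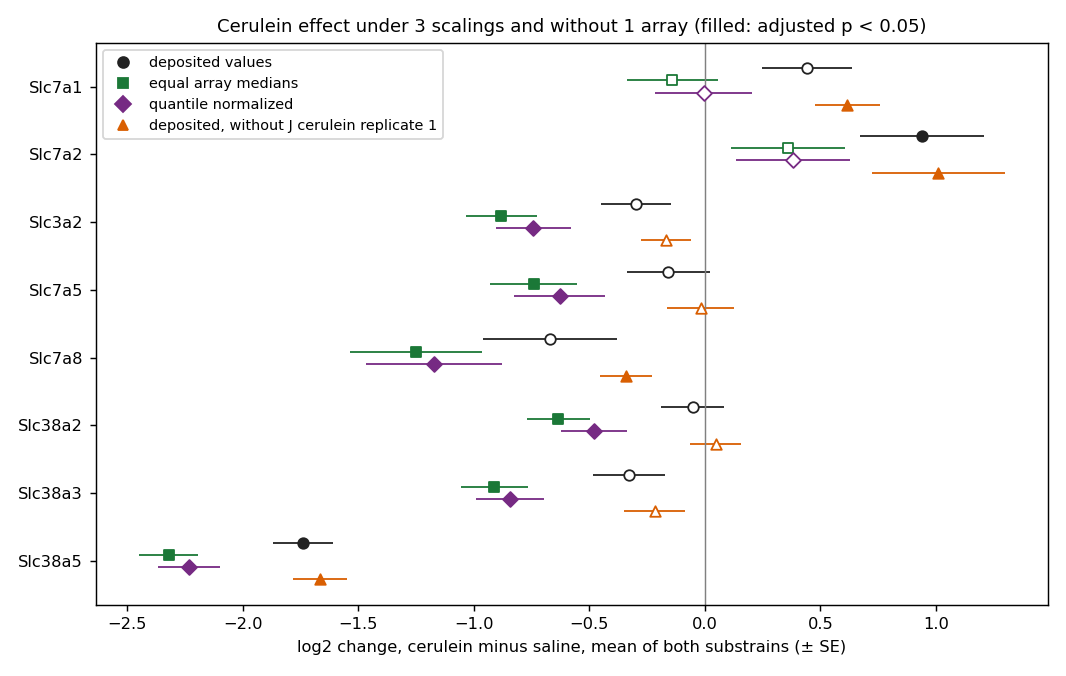
Log2 change, cerulein minus saline, as the mean of both substrains (± SE) for the 8 measured transporters, on the deposited values, with equal array medians, after quantile normalization, and without J cerulein replicate 1. Filled symbols have an adjusted p under 0.05 over all tested genes. Slc38a5 lies between -2.32 and -1.67 in all 4, while no gene is called higher with equal medians or quantile normalization, where Slc7a2 lies at 0.36 and 0.38.

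With equal medians or quantile normalization 6 of the 8 transporters fell as the mean of both substrains and none rose, and the 2 that did not pass were the cationic transporters Slc7a1 and Slc7a2. With equal medians 36.1% of all tested genes fell and 26.6% rose, and after quantile normalization 34.2% fell and 28.0% rose. Within substrains equal medians gave 6 transporters lower and none higher in J mice, where 29.4% of all genes fell and 20.9% rose, and 3 lower and none higher in NHsd mice, where 28.8% fell and 20.2% rose. The median change of the 8 was -0.23 on the deposited scale, where the median of all genes was 0.49, and -0.81 with equal medians, where the median of all genes was -0.10. Within substrains the deposited values gave 1 transporter lower and none higher in J mice, where 7.61% of all genes fell and 47.8% rose (55.4% in either direction). In NHsd mice 1 fell and 2 rose, where 6.6% of all genes fell and 48.7% rose (55.3% in either direction). The group means compared within J and within NHsd mice come from different arrays, while each comparison shares its arrays with the mean of both. The error of a gene was estimated from all arrays together, so the 2 comparisons are not independent. Without J cerulein replicate 1 the Slc7a8 change in NHsd mice stayed at -0.39. Its SE went from 0.407 to 0.149, and its adjusted p (limma) from 0.438 to 0.0409.

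Between the substrains no transporter was called by limma. After cerulein the J minus NHsd changes of the 8 genes ran from -0.59 to -0.02, all negative, with adjusted p values from 0.39 to 0.99, and 2 had an unadjusted p under 0.05. Without J cerulein replicate 1 they ran from -0.39 to 0.12, and 1 had an unadjusted p under 0.05. In saline the J minus NHsd changes ran from -0.28 to 0.70, and 0 of 8 had an unadjusted p under 0.05. The difference of the cerulein effects, J minus NHsd, ran from -0.79 to -0.02, with 0 of 8 at an unadjusted p under 0.05, and from -0.58 to 0.24 without that array. Over all genes limma called 0.223% after cerulein, 0.0588% in saline and 0.0118% for the difference of effects.

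Other amino acid transporter genes were taken from a list of 49, of which 47 had a probe set and 19 passed the filter. On the deposited scale 7 of the 19 rose, 3 fell and 9 did not pass, with a median change of 0.01; with equal medians 3 rose and 11 fell. Slc38a4, for the system A transporter SNAT4, had the largest rise, at 2.67 log2 (SE 0.18, limma, adjusted p = 1.33e-07). Its signals were 5.76 to 6.93 on cerulein arrays and 3.50 to 4.07 on saline arrays, near the limit of log2 4, so the size is inexact. Slc36a4, of the proton-coupled amino acid transporter family, was 1.49 higher (SE 0.17, adjusted p = 9.19e-06), and at least 2.45-fold higher in J mice, where all saline arrays lay under log2 4. Slc6a6, the taurine transporter, was 1.26 higher (SE 0.21, adjusted p = 0.000155). These 3 genes also rose with equal medians.

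The other 4 rises were called on the deposited scale only: Slc15a4, a lysosomal carrier of histidine and peptides, at 0.94 (0.36 with equal medians, adjusted p = 0.119), Slc38a6 at 0.72 (0.14, adjusted p = 0.512), Slc1a5, the glutamine exchanger ASCT2, at 0.50 (-0.08, adjusted p = 0.655), and Slc1a3, a glutamate transporter, at 0.48 (-0.10, adjusted p = 0.472). The sizes for Slc15a4 and Slc38a6 are inexact, since their saline means lay under log2 4. For Slc38a6 all saline arrays lay between 3.12 and 3.30, and the J cerulein mean was 3.89. This gene thus passed the filter through cerulein arrays alone. Its rise was at least 1.01-fold in NHsd mice, and no lower bound can be given in J mice. Lower after cerulein were Slc1a4, for the alanine, serine and cysteine transporter ASCT1, at -0.90 (SE 0.16, adjusted p = 0.000313), Slc6a9, the glycine transporter GlyT1, at -0.76 (SE 0.18, adjusted p = 0.00202), and Slc38a1, of system A, at -0.47 (SE 0.16, adjusted p = 0.018). Slc1a4 averaged log2 4.90 in J and 5.19 in NHsd mice after cerulein, against 5.88 in J and 6.01 in NHsd mice in saline. Among the 28 genes under the filter were Slc7a11, Slc7a7 and Slc7a10, further light chains of Slc3a2, and Slc7a9 and Slc7a13, the partners of Slc3a1.

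**Figure D4:**
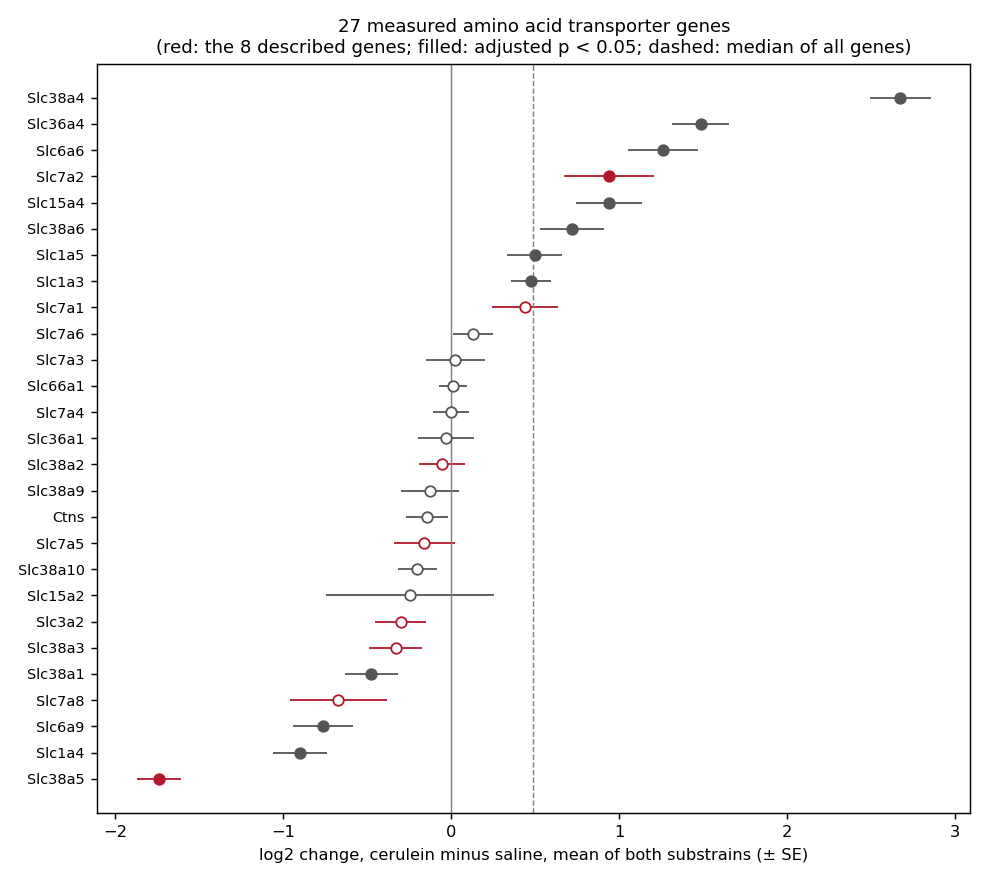
Log2 change on the deposited scale, cerulein minus saline, as the mean of both substrains (± SE) for the 8 transporters described (red) and 19 other measured amino acid transporters (grey). Filled symbols have an adjusted p under 0.05 over all tested genes, and the dashed line is the median of all genes at 0.49; Slc38a5 is the lowest and Slc38a4 the highest.

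Genes of the amino acid response, in which the kinase GCN2 and the factor ATF4 raise transporters and synthetic enzymes when amino acids are short, were all measurable (26 of 26 with a probe set). Of these 9 rose and 11 fell, with a median change of -0.15, and with equal medians 2 rose and 16 fell. Fgf21, a secreted hormone, lay under log2 4 on all cerulein arrays with a level at least 3.35-fold lower in J and at least 3.80-fold lower in NHsd mice (limma, adjusted p of the mean 2.8e-05). Ddit4, an inhibitor of mTORC1, rose by 1.72 (SE 0.19, adjusted p = 5.86e-06), and Pck2, the mitochondrial phosphoenolpyruvate carboxykinase, fell by 1.46 (SE 0.12, adjusted p = 6.37e-07).

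Of 27 measured genes of amino acid sensing by mTORC1, the kinase complex that couples amino acid supply to protein synthesis, 11 rose, 3 fell and 13 did not pass, with a median change of 0.12. With equal medians 4 rose and 15 fell, and with quantile normalization 6 rose and 15 fell. Sesn3, a sestrin, rose by 1.52 (SE 0.23, limma, adjusted p = 1e-04), and was at least 2.66-fold higher in NHsd mice, where all saline arrays lay under log2 4. Bmt2, which encodes a sensor of S-adenosylmethionine, rose by 1.20 (SE 0.22, adjusted p = 0.000435), and Rraga, for a Rag GTPase that recruits mTORC1 to the lysosome, rose by 1.19 (SE 0.11, adjusted p = 1.29e-06). All 3 remained called higher with equal medians.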

How the data were processed

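The deposited values were log2 probe set signals of 12 arrays, used as deposited; GCRMA and Partek are named, per the submitters' processing notes, and further steps are not given in the sources used here. By the array's annotation 34958 of 45101 probe sets had 1 gene symbol, and the 932 with several and the 9211 with none were left out. Probe sets above log2 4 on 3 or more arrays were kept, and the brightest kept probe set on average stood for its gene (8505 genes). Differences between group means were fitted over all 12 arrays with limma 3.58.1 (R 4.3.3; 8 residual degrees of freedom; intensity trend; two-sided), and a gene was called where its p, adjusted by Benjamini-Hochberg over all tested genes, was under 0.05. The small number of arrays limits the precision: the median SE of a difference between 2 groups was 0.20. For a gene under log2 4 throughout a group, the fold is a lower bound, the other group's mean against log2 4.

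The members, the lists and their rules were chosen with earlier results of these data known. Named were all 10 members; the called genes with the 6 largest rises and the 6 largest falls among other transporters (Slc1a3, the rise left over, was named after its value was seen); the 3 called genes with the largest change on the response and sensing lists (Slc38a9 is on 2 lists); 2 genes per cell type list; and 4 nearest profiles each for the largest rise and fall. Single values per array were compared with exact permutation tests. Promoter sequences come from RefSeq (GRCm38.p6). The fit was tested on simulated data. Alternatives were other scalings, filters, moderation and probe set rules, the compared groups alone, the replicate number as a term, and leaving out each array. Equal medians without J cerulein replicate 1, and each probe set tested separately, were added after the data were seen. Python 3.11.15, pandas 2.3.3 and matplotlib 3.10.9 were used.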

Additional observations from a re-analysis of the deposited data

How the results depend on the processing

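Over 48 transporter results (8 genes in 6 comparisons) and 1040 alternative values, 962 kept their side of the threshold, 19 lost a call, 56 gained one and 3 were called in the opposite direction; 44 values called in neither setting changed sign. Slc38a5 was called lower in every cerulein comparison under every alternative run, from -2.32 to -1.67 as the mean of both substrains. The number of transporters called in that mean, 2 on the deposited scale, was 6 with equal medians, 6 with quantile normalization, 6 with equal medians and without J cerulein replicate 1, 4 with a filter at log2 6 and 4 with the replicate block, and 2 to 4 with an array left out (4 without J cerulein replicate 1 and 4 without J cerulein replicate 3). In J mice the count of 1 became 6, 6, 6, 2 and 2 under the same settings and 1 to 3 with an array left out (2 without J cerulein replicate 2, 3 without J cerulein replicate 3). In NHsd mice the count of 3 became 1 with no filter, 6 with equal medians and without J cerulein replicate 1, and 2 to 4 with an array left out, where Slc7a1 or Slc7a2 was the call lost. The reversed values were Slc38a2 as the mean of both substrains with the mean of its probe sets (0.42, adjusted p = 0.0101), and in NHsd mice Slc7a5 (-0.57) and Slc38a2 (-0.39) with equal medians and without J cerulein replicate 1; equal medians alone gave the same 2 values, uncalled (adjusted p = 0.0914 and 0.106), and the first is the mean of the Slc38a2 probe sets at -0.05 and 0.90. Calls over all genes fell to 3543 as the mean of both substrains, 2890 in J and 2955 in NHsd mice with a filter at log2 6, which tests fewer genes, and ran from 0 to 89 between substrains after cerulein (19 on the deposited scale), 0 to 37 in saline (5) and 0 to 15 for the difference of effects (1). Same-numbered arrays of different groups had deviations that correlated from -0.16 to 0.34, with 6 of 18 pairs over 0.1 and 7 of 12 arrays closest to their own number. For differently numbered arrays the range was -0.365 to 0.249, with 8 of 36 pairs over 0.1. These values do not settle whether the numbers mark pairs. The labels do not call them pairs, and the main fit did not take them as pairs. With the replicate block, Slc7a1 (adjusted p = 0.032) and Slc7a8 (adjusted p = 0.040) gained a call in the mean.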

Other observations

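Cell type lists not described above also moved with cerulein as the mean of both substrains. The measured duct genes numbered 11, of which 9 rose (8 with equal medians, 10 without J cerulein replicate 1) and 1 fell, by a median change of 1.17; the claudin gene Cldn4 was at least 3.85-fold higher in J and at least 2.92-fold higher in NHsd mice, and the tetraspanin gene Tspan8 at least 4.97-fold and 3.65-fold. All 13 stellate cell and fibroblast genes rose (12 with equal medians), with a median of 2.20, among them the matrix genes Postn, at least 25.0-fold higher in J and 22.9-fold in NHsd mice, and Lum, by 3.67 (SE 0.19). The acinar genes with the largest change were Pla2g1b at -2.15 and Amy1 at -1.99, and the islet genes Ttr and Ppy were each 1.56 higher, with Ppy near or under log2 4 in saline. The macrophage genes Tyrobp and C1qc were 3.97 and 3.86 higher. These 2 sizes are inexact, since saline signals were 3.50 to 5.06 for Tyrobp and 3.22 to 4.28 for C1qc.

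Of 8 endothelial genes 3 rose and 1 fell (none and 4 with equal medians), with Vwf, near or under log2 4, at 1.01 and Tek at 0.73. Of 5 other leukocyte genes 2 rose (1 with equal medians), with Ptprc at 2.88 (adjusted p = 3.88e-06) and S100a8 at 1.63 (adjusted p = 0.0833). No adipocyte gene of 3 was called on the deposited scale (Retn at -0.44, Fabp4 at 0.27), while with equal medians 1 of 3 fell (Retn at -1.02, adjusted p = 0.00053), and the 1 erythroid gene, Slc4a1, at 1.14, did not pass.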
